A study of Mus musculus with 40 samples.

Results

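This report describes mouse embryonic stem cells labelled as a Pramel7 knockout (P7KO, n = 2 libraries) beside wild type cells of the same line (WT, n = 4 libraries, replicates 3 to 6), measured by RNA sequencing. The 6 libraries were taken by their labels from a table of 12 libraries in a series of 40 samples, 34 of them RNA libraries. All are E14tg2a, an established male mouse embryonic stem cell line, grown in GMEM medium with fetal bovine serum and LIF. The only stated difference between the groups is the genotype. The labels do not say how Pramel7 was disrupted, whether the knockout is 1 clone, or whether the libraries of a group came from separate cultures. The p-values therefore measure only the spread between these libraries. The same table holds a Dux knockout (DuxKO, n = 2) and a Pramel7 overexpression (P7OE, n = 2) in the same line, which are used below as side values.

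Pramel7 belongs to the PRAME family of leucine-rich repeat proteins and is known from the inner cell mass and from naive embryonic stem cells, where its expression lies downstream of LIF and Stat3. The protein has been linked to Cullin 2 ubiquitin ligases and to the turnover of UHRF1, which brings the maintenance methyltransferase DNMT1 to newly copied DNA. Naive cells carry little DNA methylation, and cells that leave the naive state switch on the de novo enzymes Dnmt3a and Dnmt3b together with formative genes such as Fgf5.

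The Pramel7 RNA itself could not check the knockout label. Its counts were 2, 2, 4 and 2 in WT and 0 and 3 in P7KO, against 435 and 431 in the Pramel7 overexpression libraries. The WT level was thus near that of a few reads, and the difference between P7KO and WT (log2 fold change -0.94, SE 0.94) had an adjusted p of 0.598 in edgeR's quasi-likelihood F test after adjustment by Benjamini and Hochberg over all genes, the test behind every adjusted p below. All log2 fold changes are P7KO minus WT on counts unless another pair is named, and called means an adjusted p under 0.05 over the 20161 genes tested.

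Total counts in the 6 libraries ran from 22442267 to 30095967, and levels below are CPM, read counts scaled to a common library size after trimmed-mean normalisation. Summed over 7 stem cell markers, the level was 1669 to 2511 CPM in WT and 2212 to 2304 CPM in P7KO. Among the WT libraries, on the log2 CPM scale, replicates 3 and 4 correlated at 0.982 and replicates 5 and 6 at 0.976. Correlations between these pairs were 0.965 to 0.973. Replicate 5 stood nearly as close to replicates 3 and 4 (0.973 with each) as to replicate 6. The labels name no batch. The knockout was called different from WT in 1911 genes, which is 9.48% of genes tested: 792 were higher (3.93%) and 1119 lower (5.55%). Among called genes with a change of 2-fold or more, 237 were higher (1.18%) and 705 lower (3.50%). Against WT replicates 3 and 4 alone, 2099 genes were higher (10.4%) and 1939 lower (9.62%), and against replicates 5 and 6 alone 2371 were called (11.8%), 1008 of them higher and 1363 lower. In all, 1403 genes (6.96%) were called in the same direction in the full comparison and against each pair. Whether called or not, P7KO libraries lay above every WT library in 17.1% of genes and below every one in 15.5%, the background for statements below that groups do not overlap. Without P7KO replicate 1 the count was 518, and without P7KO replicate 2 it was 728. With only the 6 libraries in the fit it was 1073, and of the called genes named below Ddc, Dmc1, Dnmt1, Fem1b, H2-K1, Id2, Ifitm2, Lifr, Mdm2, Nelfa, Notum, Nr0b1, Nr5a2, Pramef12, Rpl10l, Rsad2, Sox11, Sox4, Tcf7l2, Trappc9, Trp53, Uhrf1 and Zfp42 lost the call there with no change of sign. The median log2 fold change of all genes tested was 0.01.

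Among the genes lowered most were RNAs of the imprinted Dlk1 to Dio3 region of chromosome 12 (chr12:109452485-110281097, GRCm38) and of chromosome Y. Meg3, Rian and Mirg are long noncoding RNAs read from the maternal copy of the imprinted region, with snoRNAs and a large group of miRNA hairpins along them. Rian counts were 2730, 2672, 2120 and 1698 in WT and 0 in both P7KO libraries, which is at least 1870-fold lower with a floor of 3 counts over the group. Meg3 counts were 484, 370, 787 and 515 in WT and 0 in both P7KO libraries, at least 438-fold lower. Mirg counts were 672, 630, 487 and 318 in WT and 2 and 0 in P7KO, a ratio of 643 with a counting interval of 178 to 5310 (95%, counting error only, as for all such intervals and floors here). Every WT library thus held at least 318 reads of each RNA, and the P7KO libraries held at most 2. The loss was not shared by the other lines of the table: Rian had 1592 and 2726 counts in DuxKO and 3173 and 1554 in P7OE, and Meg3 had 322 and 408 counts in DuxKO and 692 and 460 in P7OE.

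Of the 29 genes tested between Dlk1 and Dio3, 22 were lower, 0 were higher and 24 had 0 counts in both P7KO libraries. Between Meg3 and Mirg the table lists 60 miRNA hairpin loci, of which 17 were tested. All 17 of these had 0 counts in P7KO and 14 were called lower. Among 13 snoRNA loci there, 5 were tested, all 5 had 0 counts in P7KO, and 3 were called lower. These are total RNA libraries, so a hairpin count holds reads of the long precursor RNA that cross the hairpin and is not a measure of the mature miRNA. The hairpin loci Mir410 and Mir382 are shown here because their WT counts are among the highest of the 17 and none of their reads was found in P7KO, together with 2 loci that lie nearer to Meg3. The mature sequences lie on the plus strand of chromosome 12 in RefSeq for GRCm38.p6 and are written with the seed, bases 2 to 8, in capitals.
mmu-miR-410-5p: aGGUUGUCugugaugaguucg
mmu-miR-410-3p: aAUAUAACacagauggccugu
mmu-miR-382-5p: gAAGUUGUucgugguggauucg
mmu-miR-382-3p: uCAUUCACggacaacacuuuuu
mmu-miR-1906: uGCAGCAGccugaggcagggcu
mmu-miR-3070-5p: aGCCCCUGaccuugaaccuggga
mmu-miR-3070-2-3p: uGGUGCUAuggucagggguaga
No seed is shared among these 7. Mir410 counts were 26, 13, 23 and 19 in WT and 0 in both P7KO libraries, at least 16.5-fold lower. Mir382 counts were 33, 28, 14 and 10 in WT and 0 in both P7KO libraries, at least 17.3-fold lower. For Mir1906-1 the WT sum of 58 counts against 0 gave at least 11.8-fold, and for Mir3070b the sum of 45 against 0 gave at least 9.15-fold. Mir1906-1 lost its call without P7KO replicate 1, and Mir3070b without either P7KO library. Each WT library held reads of these 4 loci and neither P7KO library did.

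The protein-coding genes of the region, which are read mainly from the paternal copy, did not behave alike. Rtl1, a retrotransposon-derived gene needed in the placenta, had 469, 405, 336 and 322 counts in WT and 6 and 9 in P7KO (ratio 62.3, interval 37.7 to 112). An RNA antisense to Rtl1 holds several of the hairpins, and the sources used here do not state whether counting used strand, so the Rtl1 count may include reads of its antisense partner. Dlk1, a Notch-like ligand, had 108, 85, 93 and 48 counts in WT and 23 and 18 in P7KO, a lower level without overlap (log2 fold change -2.29, SE 0.29, adjusted p 0.000332). Dio3, the deiodinase that inactivates thyroid hormone, had 23, 42, 53 and 34 counts in WT and 38 and 59 in P7KO, which overlap (log2 fold change 0.08, adjusted p 0.939).

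**Figure D1:**
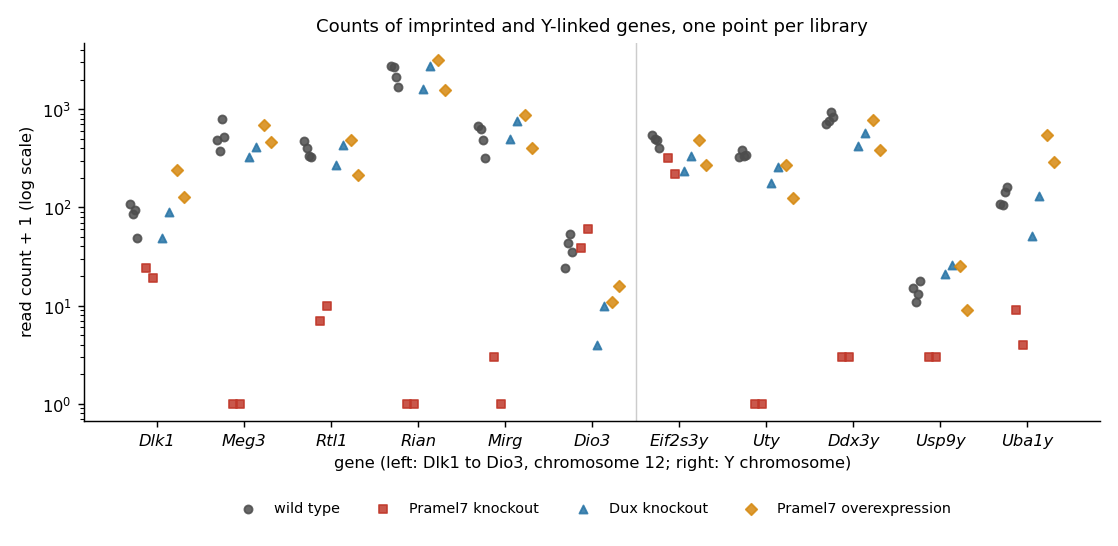
Counts per library, on a log axis of counts plus 1, for 6 genes of the Dlk1 to Dio3 region (left) and 5 of chromosome Y (right) in WT, P7KO, DuxKO and P7OE; each point is 1 library. P7KO points lie at or near 0 counts for Meg3, Rian, Mirg, Uty and Ddx3y, while Dio3 and Eif2s3y keep counts in every genotype.

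Chromosome Y genes were the other group with counts near 0. Uty, a histone demethylase relative, had 324, 386, 330 and 338 counts in WT and 0 in both P7KO libraries, at least 280-fold lower. Ddx3y, an RNA helicase, had 699, 749, 924 and 839 counts in WT and 2 and 2 in P7KO (ratio 490, interval 191 to 1800). Uba1y, a ubiquitin-activating enzyme gene, had 108, 105, 144 and 161 counts in WT and 8 and 3 in P7KO (log2 fold change -4.82, SE 0.42, adjusted p 1.98e-05). All 3 had no overlap between the groups. Eif2s3y, whose product resembles that of the X-linked Eif2s3x, kept 315 and 216 counts in P7KO against 547, 497, 487 and 402 in WT (log2 fold change -1.16). Whether any of these were reads of the X-linked gene was not tested. Of 7 genes tested in the chromosome Y list, 5 were lower and 0 higher. A pseudogene of chromosome Y outside the list, Gm20775, was higher (0.84, adjusted p 0.0127). DuxKO (177 and 258 counts) and P7OE (271 and 124 counts) kept Uty. Bulk RNA cannot separate fewer cells carrying an RNA from less RNA in each cell, here or below.

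A second group of lowered genes lay side by side at the proximal end of chromosome 12. From Rab10os to Hpcal1 (chr12:3235791-17791944, a stretch of 14.6 Mb that was picked after its values were seen), 39 genes other than pseudogenes had a mean log2 CPM of 2 or more. All 39 had a log2 fold change below 0, 33 of them were called lower and 0 higher, and the values ran from -1.73 to -0.43 with a median of -0.99 and quartiles of -1.13 and -0.77. Among 6 pseudogenes of the stretch at the same level 0 were called and 4 lay below 0, with a median of -0.16. Over the 39 genes, the median difference from the WT mean was -0.99 and -0.88 in the P7KO libraries and -0.04 to 0.05 in the WT libraries. It was 0.05 in each DuxKO library, and -0.03 and -0.16 in the P7OE libraries. Against DuxKO 29 of the 39 were lower and 0 higher (median -0.90), where 3.91% of all genes were lower. Against P7OE 28 were lower and 0 higher (median -0.85), where 10.1% of all genes were lower. Those comparisons use the same P7KO libraries. In the neighbouring stretch, from 1700030C10Rik to Eipr1 (chr12:20804389-28867494), the median over 23 such genes was -0.02, with 1 higher (Id2, 0.59) and 1 lower (Sox11, -0.55); Id2 was not called without P7KO replicate 1 (0.53), P7KO replicate 2 (0.64) or WT replicate 5 (0.51). Sox11 was not called against WT replicates 3 and 4 (-0.47) or without P7KO replicate 1 (-0.74), P7KO replicate 2 (-0.40), WT replicate 3 (-0.59) or WT replicate 4 (-0.59). Over the genome in bins of 10 Mb, the first 2 bins of chromosome 12 had medians of -0.93 and -0.94 and the other bins lay between -0.24 and 0.31. DNA copy number of these cells was not analysed here.

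The proximal stretch holds genes of several unrelated functions. Dnmt3a, which adds methyl groups to unmethylated DNA, is in it at chr12:3801559-3914443. Its level was 117, 121, 102 and 105 CPM in WT and 29.6 and 37.8 CPM in P7KO, a lower level in both knockout libraries with no overlap (log2 fold change -1.73, SE 0.14, adjusted p 1.13e-05). This was the lowest value among the 39 genes. Greb1 (-3.50), Gm46332 (-2.99) and Lratd1 (-2.57), which have a mean log2 CPM under 2, had larger falls in the stretch and were called. Dnmt3a also differed directly from DuxKO (log2 fold change P7KO minus DuxKO -1.32, adjusted p 0.000232) and from P7OE (-2.89, adjusted p 1.90e-07). Rab10, a small GTPase of vesicle transport, had 73.3, 76.8, 65.7 and 84.1 CPM in WT and 35.8 and 34.8 CPM in P7KO (log2 fold change -1.09). Mycn, a Myc family transcription factor, had 256, 255, 324 and 295 CPM in WT and 155 and 170 CPM in P7KO (log2 fold change -0.80, SE 0.13, adjusted p 0.0023), and was not called without P7KO replicate 1 (-0.75). Odc1, the first enzyme of polyamine synthesis, had 660, 672, 549 and 430 CPM in WT and 222 and 266 CPM in P7KO (log2 fold change -1.24). None of these genes had overlapping groups. Further called members were the helicase gene Ddx1 (-1.01), the kinase gene Rock2 (-1.14), the RNA-binding gene Pum2 (-0.93) and Rhob (-1.35).

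**Figure D2:**
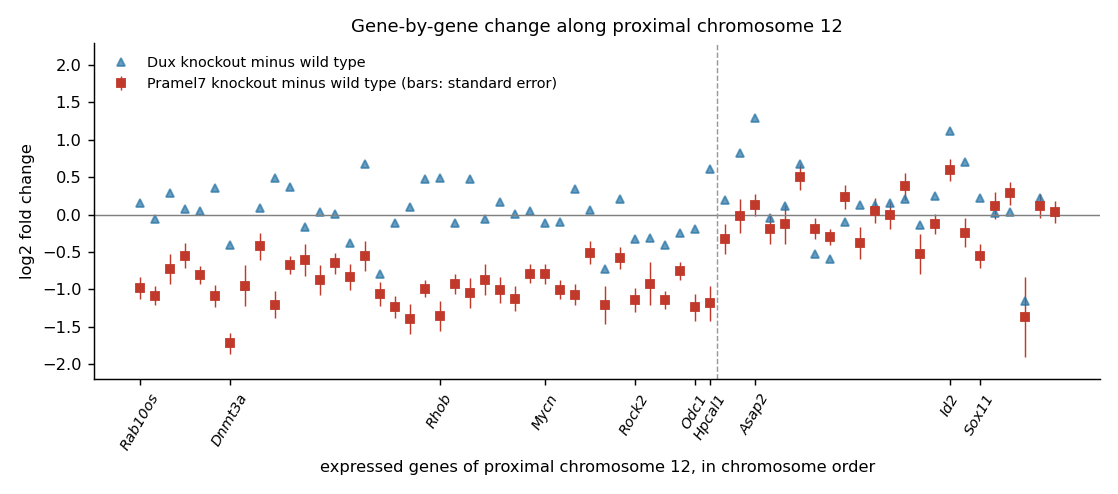
Log2 fold change against WT of P7KO (squares, bars are standard errors) and DuxKO (triangles) for the expressed genes of chromosome 12 from Rab10os to Eipr1, in chromosome order and not to scale in distance; both comparisons share the WT libraries. Left of the dashed line, which follows Hpcal1, all 39 P7KO values lie below 0 with a median of -0.99, and right of it the median is -0.02.

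A cluster of KRAB zinc finger genes on chromosome 4 (chr4:145510759-147702631, also picked after its values were seen) was lower as well. Such genes encode DNA-binding repressors, many of which act on retrotransposons. They are near-identical copies, so the counts of single members are uncertain. Of 16 genes other than pseudogenes with a mean log2 CPM of 2 or more, all 16 had a log2 fold change below 0, 14 were called lower and 0 higher, and the median was -1.63. Zfp980 had 43.7, 48.9, 75.9 and 51.6 CPM in WT and 9.46 and 8.25 CPM in P7KO (log2 fold change -2.63, SE 0.21, adjusted p 1.15e-05). Rex2 had 43.0, 41.1, 55.6 and 55.3 CPM in WT and 9.55 and 9.50 CPM in P7KO (log2 fold change -2.35, SE 0.18, adjusted p 9.11e-06). Zfp981 had 13.6, 17.5, 17.6 and 13.2 CPM in WT and 2.42 and 1.18 CPM in P7KO (log2 fold change -3.09). For all 3 genes the groups lay far apart. The members that were not called were Gm13212 (-0.09) and Zfp993 (-0.96, adjusted p 0.064), which DESeq2 called (-0.98). Among 11 pseudogenes of the cluster at the same level 2 were higher and 3 lower, with a median of 0.01.

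Unlike the chromosome 12 stretch, the zinc finger cluster was also low in the Dux knockout. Side by side, and sharing the WT controls, the median of the 16 genes was -2.65 in DuxKO minus WT, -1.63 in P7KO minus WT and 0.78 in P7OE minus WT, with 16 lower in DuxKO (8.91% of all genes) and 9 higher in P7OE (11.0% of all genes). Tested directly, P7KO was above DuxKO in 9 of the 16 and below it in 0 (median 0.99), against 3.68% of all genes called higher and 3.91% lower in that comparison. P7KO was below P7OE in 15 of the 16 and above it in 0 (median -2.30), against 10.1% of all genes called lower and 7.83% called higher there. The median of P7KO was -1.38 against WT replicates 3 and 4 and -1.79 against replicates 5 and 6. The labels do not say which libraries were made together. The part of such differences between rounds of work in these and the other direct comparisons was not tested.

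**Figure D3:**
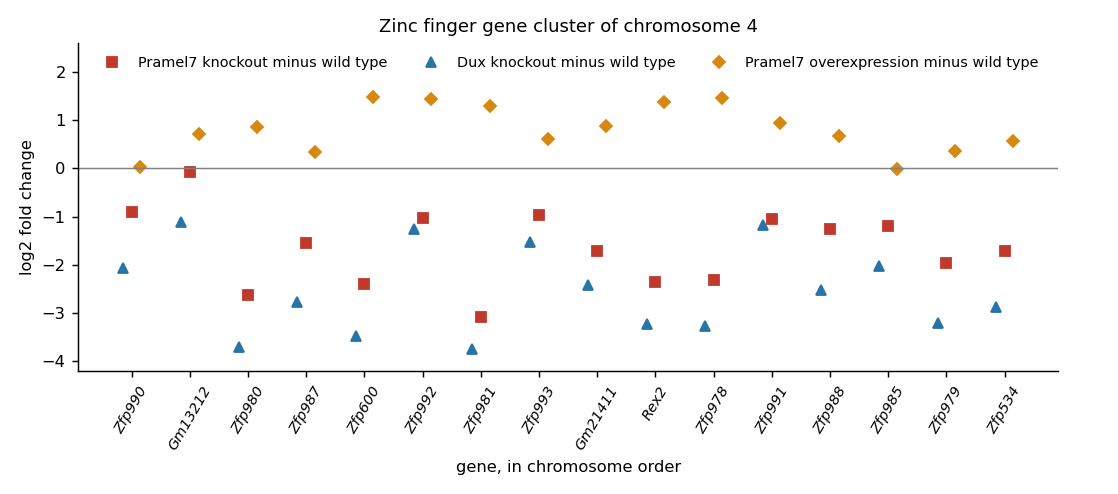
Log2 fold change against WT of the 16 expressed genes, pseudogenes left out, of the chromosome 4 zinc finger cluster in P7KO, DuxKO and P7OE, in order of position; the 3 comparisons share the WT libraries. P7KO values lie below 0 for all 16 genes, and the median is -2.65 for DuxKO and 0.78 for P7OE.

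Imprinted genes outside the Dlk1 to Dio3 region changed in both directions. Of 53 imprinted genes tested, 7 were higher and 16 lower, the lower set including the Dlk1 to Dio3 genes described above. In the Kcnq1ot1 cluster (chr7:142966822-143549882, 12 tested, 1 higher, 5 lower), the higher gene was the noncoding RNA Kcnq1ot1, known to silence neighbours on the paternal copy. Kcnq1ot1 had 28.5, 26.1, 55.0 and 50.1 CPM in WT and 100 and 82.8 CPM in P7KO (log2 fold change 1.20, SE 0.25, adjusted p 0.00884), and lost the call without P7KO replicate 1 (1.04). Cdkn1c, a cyclin-dependent kinase inhibitor, had 90.6, 89.2, 71.4 and 101 CPM in WT and 10.5 and 12.3 CPM in P7KO (log2 fold change -2.95, SE 0.16, adjusted p 3.37e-07). Phlda2, a placental growth regulator, had 305, 373, 356 and 358 counts in WT and 29 and 27 in P7KO (log2 fold change -3.92, adjusted p 7.75e-07). In each of these genes the P7KO libraries lay outside the WT range. Ascl2, a trophoblast transcription factor, was also lower (-3.59), as were Slc22a18 (-2.90, not called without P7KO replicate 1 at -3.54 or P7KO replicate 2 at -2.48) and Cd81 (-0.61, not called without P7KO replicate 1 at -0.66 or P7KO replicate 2 at -0.59). Kcnq1 (-1.64, adjusted p 0.186), Trpm5 (-0.67), Tspan32 (-0.13) and Tssc4 (0.03) were among the genes of the cluster that were not called. Cdkn1c was lower still in DuxKO (3.47 and 3.61 CPM) and stood at 95.8 and 92.0 CPM in P7OE. Its direct difference of P7KO from DuxKO was 1.68 on the log2 scale with an adjusted p of 0.00016. Low counts of Phlda2 and Slc22a18 were not particular to P7KO. Phlda2 had 8 and 16 counts in DuxKO and 111 and 75 in P7OE, and Slc22a18 had 2 and 3 in DuxKO and 12 and 10 in P7OE. Kcnq1ot1, in counts not scaled for depth, had 1293 and 1970 in DuxKO and 1982 and 1314 in P7OE. Its WT counts were 754, 649, 1431 and 1101.

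Elsewhere, Gab1, an adaptor of receptor signalling that is imprinted in the placenta, had 2510, 2563, 5131 and 4556 counts in WT and 469 and 445 in P7KO (log2 fold change -3.32, SE 0.32, adjusted p 5.41e-05). It was low in DuxKO too, with 251 and 474 counts. Sfmbt2 (-1.82), Smoc1 (-1.72) and Igf2 (-0.98, not called without P7KO replicate 1 at -0.86), the fetal growth factor, were lower. Higher imprinted genes were Plagl1 (1.84), Mest (1.21), Copg2 (0.96, not called without P7KO replicate 2 at 0.90), Ddc (0.70), Grb10 (0.69) and Trappc9 (0.44). Trappc9 lost its call without P7KO replicate 1 (0.40), P7KO replicate 2 (0.46) or WT replicate 4 (0.39) and with no filter on low counts (0.41). Mest rose from 72.8, 73.0, 89.1 and 115 CPM to 197 and 208 CPM with no overlap. Ddc had 4.69, 4.82, 7.12 and 5.91 CPM in WT and 8.64 and 9.64 CPM in P7KO, and its call was lost against WT replicates 5 and 6 (0.48), without P7KO replicate 1 (0.76), without P7KO replicate 2 (0.62), without WT replicate 3 (0.61) and without WT replicate 4 (0.61).

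Among enzymes of DNA methylation, both de novo methyltransferases and their cofactor were lower. Dnmt3b had 360, 377, 264 and 269 CPM in WT and 77.2 and 76.1 CPM in P7KO (log2 fold change -2.05, SE 0.18, adjusted p 2.10e-05). Dnmt3l, the cofactor without catalytic activity, had 171, 178, 230 and 229 CPM in WT and 80.0 and 88.0 CPM in P7KO (log2 fold change -1.27, SE 0.15, adjusted p 0.000202). Neither gene overlapped between the groups. Side by side with shared controls, Dnmt3b was at -2.78 in DuxKO and -1.35 in P7OE, and Dnmt3l at -2.84 in DuxKO and 0.26 in P7OE, while Dnmt3a was at -0.40 in DuxKO and 1.17 in P7OE. Dnmt1 had 244, 245, 362 and 297 CPM in WT and 443 and 443 CPM in P7KO (log2 fold change 0.63, SE 0.15, adjusted p 0.0225), with the call lost without P7KO replicate 1 (0.61), without P7KO replicate 2 (0.63), without WT replicate 4 (0.53) and with only the 6 libraries (0.61). Uhrf1 had 339, 330, 334 and 292 CPM in WT and 402 and 452 CPM in P7KO (log2 fold change 0.40, SE 0.12, adjusted p 0.0482), and its call was lost in 11 of the alternatives, among them each one that left out a library, with values of 0.31 to 0.46. RNA levels say nothing of the protein, which is where PRAMEL7 is known to act on UHRF1.

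Over the whole list of 25 genes of DNA methylation and its removal, 5 were higher and 4 lower, with a median of 0.12. The dioxygenase gene Tet1 could not be placed against WT, because the WT pairs lay on either side of it: 254 and 264 CPM in replicates 3 and 4, 645 and 852 CPM in replicates 5 and 6, and 588 and 603 CPM in P7KO. Tet2 was not called (0.42, adjusted p 0.223), but was against WT replicates 3 and 4 (0.81), with 0.10 against replicates 5 and 6. Of 18 genes tested in the Cullin 2 ligase list, 0 were higher and 1 was lower, the substrate receptor gene Fem1b (-0.51), which was not called without P7KO replicate 1 (-0.44) or P7KO replicate 2 (-0.61). That is 5.56% of the list, near the 5.55% of all genes tested that were lower. Cul2 itself was not called (0.12, adjusted p 0.709). In the Pramel family 6 genes were tested and 2 were lower, Pramef8 (-1.41) and Pramef12 (-0.73, not called without P7KO replicate 1 at -0.58). Members of that family are near-identical copies, so their counts are uncertain.

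The called genes of naive pluripotency were all higher, and all but 1 of the called genes of the formative state were lower. Of 20 naive genes, 8 were higher and 0 lower, with a median of 0.40. Of 24 formative and primed genes, 1 was higher and 13 were lower, with a median of -0.84. These lists were drawn up with earlier results of these data known, so their direction is not independent evidence. Against WT replicates 3 and 4 alone, 18 of the naive genes were higher, and against replicates 5 and 6 alone 8 were higher and 2 lower. The formative genes gave 12 and 13 lower against the same pairs.

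Gbx2, a homeobox gene downstream of Stat3, had 39.7, 37.1, 63.2 and 58.9 CPM in WT and 118 and 117 CPM in P7KO (log2 fold change 1.24, SE 0.19, adjusted p 0.00105). Tfcp2l1, a transcription factor of the naive network, had 140, 145, 214 and 194 CPM in WT and 285 and 323 CPM in P7KO (log2 fold change 0.81), and was not called without P7KO replicate 2 (0.72). Dppa3, a maternal factor that restrains UHRF1, had 5.91, 5.99, 4.62 and 2.28 CPM in WT and 13 and 11.9 CPM in P7KO (log2 fold change 1.40), and was not called without P7KO replicate 1 (1.31) or P7KO replicate 2 (1.47). In these genes both knockout libraries lay above all 4 WT libraries. The other higher naive genes were Prdm14 (0.98, not called without P7KO replicate 2 at 0.81), Nr5a2 (0.80), Esrrb (0.79, not called without P7KO replicate 2 at 0.73), Zfp42 (0.67) and Nr0b1 (0.56). Nr5a2 was at 1.14 against WT replicates 3 and 4 and 0.52 against replicates 5 and 6, and was not called without P7KO replicate 1 (0.81) or P7KO replicate 2 (0.76). Zfp42, at 0.40 against WT replicates 5 and 6, and Nr0b1 were not called without either P7KO library, WT replicate 3 or WT replicate 4, at 0.55 to 0.75 for Zfp42 and 0.44 to 0.67 for Nr0b1. Pou5f1 (0.43, adjusted p 0.0611), Nanog (0.28), Klf4 (0.37) and Dppa2 (0.22) were not called. Against WT replicates 3 and 4 alone Pou5f1 (0.57), Nanog (0.42) and Klf4 (0.45) were called, and DESeq2 called Pou5f1 (0.41). Of 14 core pluripotency genes only Lin28a was called, at a lower level (-0.83, not called without P7KO replicate 1 at -0.78). That is 7.14% of the list, beside 9.48% called over all genes tested.

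On the formative side, Fgf5, a growth factor of the epiblast, had 18.2, 15.1, 10.7 and 8.46 CPM in WT and 1.67 and 1.46 CPM in P7KO (log2 fold change -3.06, SE 0.31, adjusted p 6.79e-05). Pou3f1, a POU factor of the postimplantation epiblast, had 91.2, 90.7, 50.4 and 56.4 CPM in WT and 11.4 and 13.6 CPM in P7KO (log2 fold change -2.53, SE 0.25). Zic2 had a mean of 52.3 CPM in WT and 15.8 CPM in P7KO (log2 fold change -1.72, adjusted p 3.54e-06), and Pim2, a kinase gene, had 79.5, 80.8, 65.7 and 68.6 CPM in WT and 16.1 and 14.7 CPM in P7KO (log2 fold change -2.26). Fgf5 and Pou3f1 were separated from WT in both knockout libraries by several-fold. Otx2, a formative transcription factor, was among the 10 genes of the list that were not called (-0.20, adjusted p 0.476). Sox4 was the 1 higher gene of the list (0.47), and its call was lost without P7KO replicate 1 (0.51) or 2 (0.41) and without WT replicate 4 (0.49), 5 (0.35) or 6 (0.45). Sox4 also lost it against WT replicates 3 and 4 (0.34), with DESeq2 size factors (0.45), upper quartile factors (0.43), no filter (0.44) and a minimum of 10 counts (0.44). Fgf5 also lay below its level in DuxKO when the knockouts were compared directly (-1.56, adjusted p 0.012), whereas Pou3f1 did not pass that test (-0.18, SE 0.27, adjusted p 0.746).

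**Figure D4:**
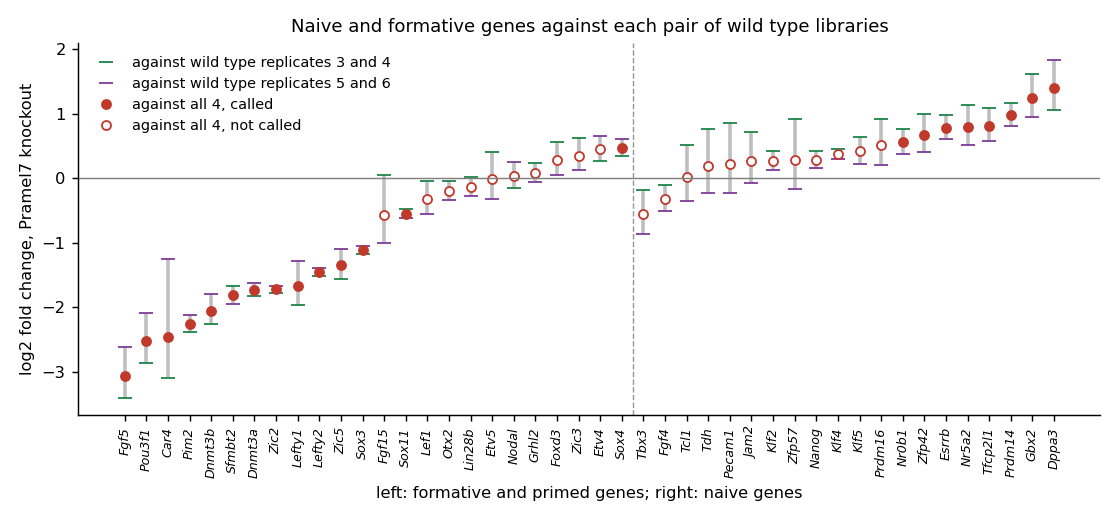
Log2 fold change of P7KO against all 4 WT libraries (circles, filled where called) and against each WT pair (dashes joined by a line) for 24 formative and primed genes (left) and 20 naive genes (right). Filled circles of the naive genes all lie above 0, those of the formative genes lie below 0 except Sox4, and most naive genes lie higher against WT replicates 3 and 4 than against replicates 5 and 6.

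Signalling genes of the naive and formative states were tested as pathway lists. In the LIF and Stat3 list, 4 of 20 genes were higher and 0 lower: Gbx2, Tfcp2l1, and the LIF receptor subunits Lifr (1.00) and Il6st (0.56). Lifr had 67.8, 66.0, 124 and 137 CPM in WT and 200 and 195 CPM in P7KO, a difference of 1.56 against WT replicates 3 and 4 and 0.60 against replicates 5 and 6. Lifr lost its call without P7KO replicate 1 (0.97) or replicate 2 (1.02), as did Il6st (0.53 and 0.57). Stat3 (0.31) and its target Socs3 (-0.01) did not pass the test, although Stat3 did against WT replicates 3 and 4 (0.59). In the Fgf and Erk list, 0 of 21 genes were higher and 2 were lower, Fgf5 and the immediate early gene Egr1 (-2.07). That is 9.52% of the list called, near the 9.48% called over all genes tested.

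The Wnt list had 3 higher and 7 lower genes of 23. The lower ones were mostly ligands and targets: the ligands Wnt3 (-2.32), Wnt4 (-2.68), Wnt6 (-1.87) and Wnt7b (-1.07) and the targets T (-3.67), Sp5 (-2.31) and Axin2 (-0.94). T, the mesoderm factor Brachyury, had 19, 16.8, 16.7 and 9.96 CPM in WT and 1.26 and 1.18 CPM in P7KO (SE 0.31, adjusted p 1.73e-05). Both knockout libraries were thus below the lowest WT library by several-fold. The higher ones were Porcn (1.38), which acylates Wnt proteins, Tcf7l2 (1.16) and the extracellular inhibitor Notum (1.11). Wnt4 was at -4.12 without P7KO replicate 1 and was not called without P7KO replicate 2 (-2.0), Notum was not called without P7KO replicate 1 (0.87), and Tcf7l2 was not called against WT replicates 5 and 6 (0.84, with 1.57 against replicates 3 and 4) or without P7KO replicate 1 (1.11), P7KO replicate 2 (1.19), WT replicate 3 (1.05), WT replicate 4 (1.01) or WT replicate 5 (1.05). Without P7KO replicate 1 or 2, Axin2 (-0.85 and -1.06) and Wnt7b (-1.08 in both) were not called. The Nodal and Bmp list had 5 genes in each direction among 24. Nodal targets and inhibitors were lower, with Lefty1 at -1.67 and Lefty2 at -1.45. Higher members were Id4 (1.68), which had 4.01, 4.06, 4.69 and 5.5 CPM in WT and 14.6 and 14.7 CPM in P7KO, the activin subunit gene Inhbb (1.40) and Bmp4 (0.96, not called without P7KO replicate 1 at 1.00 or P7KO replicate 2 at 0.91).

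Most called markers of differentiated cells were lower. Of 24 primitive endoderm genes 7 were lower and 0 higher, among them Lamb1, a laminin chain (-1.23), and Sparc (-0.92). Of 19 trophoblast genes 6 were lower and 1 higher, among them the caudal homeobox gene Cdx2 (-3.05) and the keratin genes Krt8 (-2.44), Krt18 (-1.91) and Krt19 (-2.94). Cdx2 had 7.84, 6.91, 5.66 and 3.59 CPM in WT and 0.880 and 0.557 CPM in P7KO, with no overlap. Of 15 neural genes 8 were lower and 1 higher. Nes, an intermediate filament gene of neural progenitors, had 50.1, 59.5, 19.9 and 28.1 CPM in WT and 2.98 and 4.66 CPM in P7KO (log2 fold change -3.37), whereas Sox1 rose from 3.56, 3.33, 5.46 and 7.19 CPM to 13.8 and 15.4 CPM (log2 fold change 1.58). Tubb3 (-1.28) and Stmn2 (-1.04) of neurons were lower. Of 19 primitive streak and mesoderm genes 4 were lower and 2 higher, the lower including T and Fgf8 (-3.94, which was -8.54 without P7KO replicate 1, where the remaining library had 0 counts, and was not called without P7KO replicate 2 at -3.02). The 2 higher genes were Zeb1 (1.07) and Cdh2 (0.97). Of 23 Hox genes 0 were called in either direction, with 0 of 5 blood and endothelial genes; over all genes, 4852 had an unadjusted p under 0.05.

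Genes of the actin cytoskeleton and smooth muscle, many of which are targets of the serum response factor, gave 10 lower and 0 higher of 15. Tagln had 35.1, 35.8, 14.4 and 9.92 CPM in WT and 3.71 and 3.38 CPM in P7KO (log2 fold change -2.75, SE 0.47, adjusted p 0.00246), at -3.32 against WT replicates 3 and 4 and -1.78 against replicates 5 and 6. Thbs1, a matrix glycoprotein gene, had 25.5, 26.4, 23.2 and 19 CPM in WT and 5.81 and 5.36 CPM in P7KO (log2 fold change -2.07). Both genes were above WT on average in DuxKO, at 39.8 and 37.2 CPM for Tagln and 32.9 and 39.9 CPM for Thbs1, and the direct P7KO minus DuxKO differences were -3.44 (adjusted p 0.00136) and -2.71 (adjusted p 0.00018). Fibroblast and feeder genes gave 6 lower and 0 higher of 10, with 7 lower against WT replicates 3 and 4 and 3 against replicates 5 and 6. Summed over 8 fibroblast markers the level was 3.37 to 6.23 CPM in WT and 0.731 to 1.01 CPM in P7KO. Col1a2, Col3a1, Postn and Dcn were at 0 in P7KO, and Postn was at 0 in every WT library too. Summed over 6 trophoblast markers the level was 8.37 to 13.7 CPM in WT and 5.31 to 6.51 CPM in P7KO. Elf5 and Tpbpa were at 0 in P7KO, and Tpbpa was at 0 in every WT library too. Over 3 mesoderm markers the sum was 11.1 to 19.9 CPM in WT and 1.53 to 2.07 CPM in P7KO. Most of that sum was T, the only 1 called of the 2 mesoderm markers tested. Over 7 primitive endoderm markers the summed level was 7.95 to 10.2 CPM in WT and 5.57 to 9.33 CPM in P7KO. Over 4 neural markers it was 79.2 to 105 CPM in WT and 61.2 to 65.1 CPM in P7KO. The part of such cells in the lower differentiation and cytoskeleton genes was not tested.

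Interferon response and antigen presentation genes gave 3 higher and 9 lower of 26, with a median of -1.24. The lower ones clustered at a guanylate-binding protein locus (chr3:142530336-142638008, 3 of 4 Gbp genes tested lower) and at the Psmb9 to Tap2 locus of the major histocompatibility complex (chr17:34182030-34216321, 3 of 4 lower). Gbp2, an interferon-induced GTPase gene, had 19.7, 30.5, 12.2 and 8.6 CPM in WT and 0.911 and 0.975 CPM in P7KO (log2 fold change -4.23, SE 0.49, adjusted p 0.00018). Psmb8, an immunoproteasome subunit gene, had 5.68, 5.06, 2.77 and 2.73 CPM in WT and 0.314 and 0.139 CPM in P7KO (log2 fold change -4.12). The peptide transporter genes Tap1 (-2.31) and Tap2 (-3.22) and the class I genes H2-D1 (-1.95) and H2-K1 (-1.33) were lower too. H2-K1 was at -0.79 against WT replicates 5 and 6 and was not called without P7KO replicate 1 (-1.46) or P7KO replicate 2 (-1.23). WT replicates 3 and 4 were higher in Gbp2 and Psmb8 than replicates 5 and 6, and P7KO lay below all of them. Low counts of Gbp2 and Psmb8 were not particular to P7KO. Gbp2 had 29 and 28 counts in P7KO, 52 and 85 in DuxKO and 28 and 12 in P7OE, against 520, 760, 316 and 189 in WT. Psmb8 had 10 and 4 counts in P7KO, 9 and 4 in DuxKO and 4 and 3 in P7OE, against 150, 126, 72 and 60 in WT. Tap1 kept more counts in P7OE (127 and 53) than in P7KO (33 and 27). Of the Gbp genes, Gbp2b was at -3.99 and was not called without P7KO replicate 1 (-3.26), and Gbp7 was not called (-1.67, adjusted p 0.0728). The hairpin locus Mir6381 was lower (-4.06), but it lies inside Gbp2, so its reads may be those of Gbp2. It was not called without P7KO replicate 1 (-3.83) or P7KO replicate 2 (-4.34). Calls were lost for Tap2 without P7KO replicate 1 (-3.17) or P7KO replicate 2 (-3.29) and for Gbp3 (-2.38) without P7KO replicate 1 (-2.12) or P7KO replicate 2 (-2.72). The higher members were Rsad2 (2.18), Ifitm1 (0.81) and Ifitm2 (0.57), of which Ifitm1 had 50.5, 54.2, 64.7 and 56.5 CPM in WT and 96.6 and 102 CPM in P7KO. Rsad2 was at 3.45 against WT replicates 3 and 4 and was not called against replicates 5 and 6 (1.5) or without P7KO replicate 1 (1.87), P7KO replicate 2 (2.42), WT replicate 3 (1.96), WT replicate 4 (1.85) or WT replicate 5 (2.21), and Ifitm2 was not called without P7KO replicate 2 (0.44).

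The promoters of the guanylate-binding protein genes are shown because 3 of these 4 neighbours, all but Gbp7, were lower. Each line gives 100 bases of the plus strand that hold the matches in that gene, from the RefSeq promoter table for GRCm38.p6, with matches to GAAANNGAAA, the core of the interferon-stimulated response element, on either strand in capitals. The windows are chr3:142620563-142620662 for Gbp2, chr3:142594697-142594796 for Gbp2b, chr3:142559944-142560043 for Gbp3 and chr3:142530236-142530335 for Gbp7.
Gbp2: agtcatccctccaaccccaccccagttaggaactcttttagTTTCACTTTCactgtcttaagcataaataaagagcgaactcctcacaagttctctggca
Gbp2b: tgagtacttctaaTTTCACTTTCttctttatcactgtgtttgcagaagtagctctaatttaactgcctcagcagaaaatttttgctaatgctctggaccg
Gbp3: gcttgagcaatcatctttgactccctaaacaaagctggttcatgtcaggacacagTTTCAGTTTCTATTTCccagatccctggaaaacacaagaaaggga
Gbp7: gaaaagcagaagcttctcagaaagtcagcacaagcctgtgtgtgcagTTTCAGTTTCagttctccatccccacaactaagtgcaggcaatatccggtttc
The matches began 59 bases before the start in Gbp2, 137 bases in Gbp2b, 45 and 39 bases, overlapping each other, in Gbp3, and 53 bases in Gbp7. These starts are those of the promoter table, which for Gbp2b and Gbp3 lie inside the gene as the gene table gives it. Within 250 bases upstream the motif was found in 11 of the 23 tested interferon genes with a promoter in the RefSeq table (47.8%), against 2.96% of 12253 tested genes. It was held by 4 of 8 lower genes, 2 of 3 higher genes and 5 of 12 genes that were not called.

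Cell cycle genes gave 5 higher and 2 lower of 28. Ccnd2, a D-type cyclin gene of entry into S phase, had 18.3, 20.6, 23.0 and 28.3 CPM in WT and 81.2 and 90.3 CPM in P7KO, a 3.8-fold rise with no overlap (log2 fold change 1.93, SE 0.15, adjusted p 6.97e-06). It stood at 20.8 and 18.4 CPM in DuxKO and at 24.1 and 25 CPM in P7OE, and P7KO was above DuxKO by 2.13 on the log2 scale (adjusted p 4.41e-05). The inhibitor genes moved apart: Cdkn1b rose (1.11), while Cdkn2a, with 4.92, 5.83, 7.23 and 6.14 CPM in WT and 1.13 and 1.18 CPM in P7KO, was lower (-2.38), beside Cdkn1c. In the list of p53 and its targets 6 of 22 genes were lower, and the 1 higher gene was Trp53. Ccng1 (-1.07), Phlda3 (-1.24), Sesn2 (-0.71, not called without P7KO replicate 1 at -0.71) and the p53 inhibitor gene Mdm2 (-0.39) were lower. Mdm2 lost its call without P7KO replicate 1 (-0.43), P7KO replicate 2 (-0.35) or WT replicate 4 (-0.41) and with no filter on low counts (-0.41). The p53 gene itself, Trp53, had 297, 275, 450 and 342 CPM in WT and 519 and 562 CPM in P7KO (log2 fold change 0.67), and its call was lost without P7KO replicate 1 (0.70), P7KO replicate 2 (0.61), WT replicate 3 (0.59) or WT replicate 4 (0.55).

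Germline and meiosis genes gave 7 higher and 4 lower of 49. Stag3, the meiotic cohesin subunit gene, had 14.3, 13.7, 17.7 and 14.8 CPM in WT and 68.9 and 50 CPM in P7KO, a 3.93-fold rise (log2 fold change 1.97, SE 0.14, adjusted p 3.60e-06). It stood at 20.5 and 19.9 CPM in DuxKO and at 58.7 and 57.0 CPM in P7OE. Tex14 (1.49), Dmc1 (1.32), Hsf2bp (1.01) and the X-linked homeobox genes Rhox6 (1.52) and Rhox9 (1.54) were higher, while Mael (-2.11), Tdrd12 (-1.19), Rpl10l (-0.73) and Rhox5 (-1.71) were lower. The calls of Rhox9 without P7KO replicate 1 (1.6) or P7KO replicate 2 (1.45), of Rhox6 without P7KO replicate 1 (1.49), of Rpl10l without P7KO replicate 1 (-0.61), P7KO replicate 2 (-0.86) or WT replicate 5 (-0.68), and of Dmc1 without P7KO replicate 1 (1.35), P7KO replicate 2 (1.29), WT replicate 3 (1.07) or WT replicate 4 (1.23) were lost. Against WT replicates 5 and 6 Dmc1 was not called (0.89), and Rpl10l was at -0.38 against replicates 3 and 4. Rhox5 was at -2.60 without P7KO replicate 1. Genes of the two-cell-like state, which Dux drives, gave 1 higher and 0 lower of 23, the higher one being Nelfa (0.54, not called without P7KO replicate 1 at 0.54 or P7KO replicate 2 at 0.53). That is 4.35% of the list called, beside 9.48% of all genes tested. Zscan4c had 0.530, 0.281, 0.192 and 0.864 CPM in WT and 0.471 and 0.418 CPM in P7KO, which overlap (log2 fold change -0.05, adjusted p 0.97). Duxf3, the gene of Dux, had 0 to 2 counts in every one of the 6 libraries and was not tested.

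The largest rise among the named genes was at a locus on chromosome 8. Nkx6-3, a homeobox gene (chr8:23153271-23158948), had 24, 18, 28 and 20 counts in WT and 690 and 621 in P7KO, a 23.8-fold rise (log2 fold change 4.57, SE 0.19, adjusted p 2.94e-08). Its neighbour Ank1, an ankyrin gene, had 7, 7, 6 and 8 counts in WT and 121 and 87 in P7KO (log2 fold change 3.57). The noncoding RNA Gm15816 next to them had 0, 0, 2 and 4 counts in WT and 52 and 25 in P7KO, with the call lost without P7KO replicate 1. The flanking genes Kat6a (0.29, called against WT replicates 3 and 4 at 0.55) and Gpat4 (0.10) were not called. Nkx6-3 stood at 34 and 58 counts in DuxKO and at 75 and 43 counts in P7OE, and was above DuxKO by 3.44 on the log2 scale (adjusted p 4.68e-06).

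A second run of neighbours that rose lay on chromosome 3. Polr3gl, a subunit gene of RNA polymerase III, had 87, 107, 102 and 92 counts in WT and 603 and 536 in P7KO, a 4.79-fold rise (log2 fold change 2.26, SE 0.16, adjusted p 3.54e-06). Ankrd34a (1.82), Lix1l (1.76) and Txnip (0.70, not called without P7KO replicate 1 at 0.52) beside it were higher, and Rbm8a nearby was not called (0.19). Polr3gl was also at 221 and 458 counts in DuxKO, and the direct difference between the knockouts did not pass the test (0.38, adjusted p 0.243). Other genes with large rises were Elk3 (2.70), an Ets family factor, with 1.02, 1.00, 1.69 and 1.73 CPM in WT and 9.30 and 8.39 CPM in P7KO, Eya1 (2.50), Zfp521 (2.42), Pirt (2.38), Tril (2.32), Fry (2.22) and Gna14 (2.12). Fgf1 (2.24) was not called without P7KO replicate 1 (1.97). Large falls outside the groups above were those of Tmem40 (-4.50), with 2.76, 2.93, 3.73 and 2.91 CPM in WT and 0.189 and 0.0696 CPM in P7KO, Sprr2a2 (-4.00, one of several near-identical copies, so uncertain) and the retinoic acid binding protein gene Crabp2 (-4.12).

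**Figure D5:**
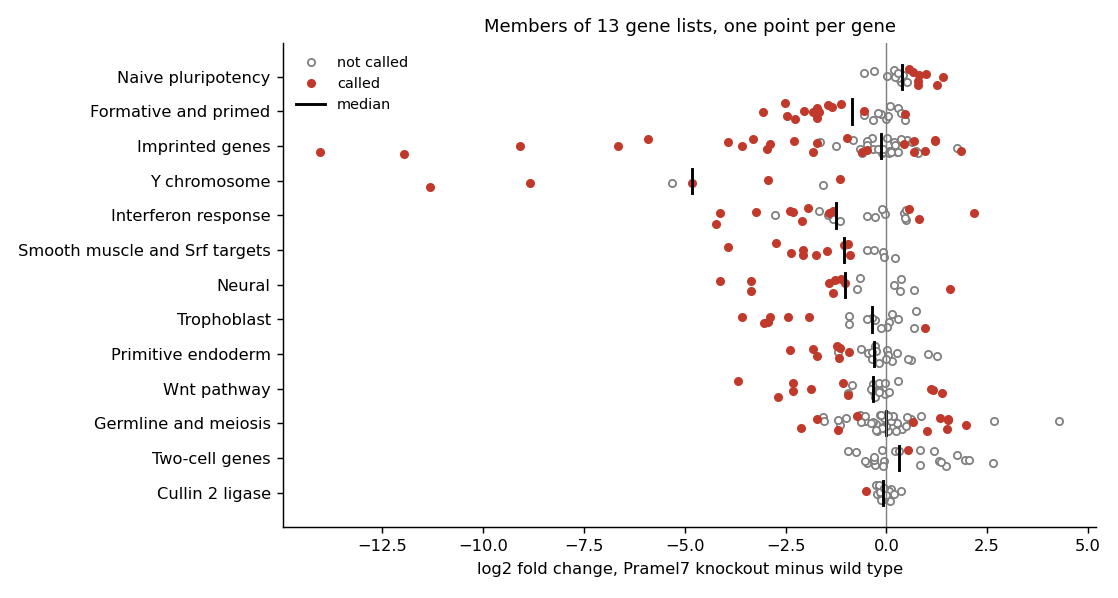
Log2 fold change of P7KO against WT for the tested genes of 13 lists, 1 point per gene, filled where called, with the list median as a black bar; points are spread vertically at random, and values of genes with 0 counts in P7KO depend on the fit's prior count. The medians of the formative (-0.84), interferon (-1.24), neural (-1.04) and smooth muscle (-1.06) lists lie below 0 and that of the naive list (0.40) above it.

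Metabolic and stress lists showed smaller and mixed changes. Of 31 hypoxia and glycolysis genes 3 were higher and 5 lower, with Slc16a3, the lactate exporter gene, at -0.86 (not called without P7KO replicate 1 at -0.78) and the kinase gene Pdk1 at 0.63 (not called without P7KO replicate 1 at 0.62). Of 26 stress and amino acid response genes 3 were higher and 5 lower. Nqo1, a target of the oxidative stress factor Nrf2, had 11.9, 11.1, 15.3 and 14.8 CPM in WT and 29.9 and 28.3 CPM in P7KO (log2 fold change 1.13, SE 0.15, adjusted p 0.000369).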

How the data were processed

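The deposited table holds raw counts, whole-number reads per gene that the authors made with Trim Galore, HISAT2 and featureCounts on the mm10 build, per the submitters' processing notes, which give no versions. The labels describe total RNA from a column kit and a stranded library kit; whether counting used strand is not given in the sources used here. Counts of 55291 genes in 12 libraries, 2 to 4 per genotype, were taken as deposited, and 20161 genes passed edgeR's filterByExpr. The main test was edgeR 4.0.16 (R 4.3.3, limma 3.58.1) with TMM scaling, a quasi-likelihood fit over all 12 libraries, the contrast P7KO minus WT and Benjamini-Hochberg adjustment over all genes tested. The standard error is the log2 fold change divided by the square root of F. Tests were checked on simulated data.

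The members and the 28 gene lists (698 genes) were chosen with earlier results of these data known. Named genes were Pramel7, Duxf3, Uhrf1, Dnmt1, Dnmt3a, Dnmt3b, Dnmt3l, Tet1, Tet2, Cul2, Pou5f1, Nanog, Klf4, Dppa2 and Zscan4c, then the 15 largest called changes per direction with at least 50 mean counts in the higher group and groups that do not overlap, predicted genes left out, then up to 5 called genes per direction and list with at least 20 mean counts. A few results under this rule are not reported here. Neighbours of named genes, further list members, the stretches of chromosomes 4, 7 and 12 and the comparisons of P7KO with DuxKO and with P7OE were added after the values were seen. Positions come from RefSeq for GRCm38.p6, the same build as mm10. Alternatives were DESeq2 1.42.0, other scalings and filters, each WT pair alone, the 6 libraries alone, a log2 change of at least 1, and leaving out each library. Floors (3 counts) and 95% intervals cover counting error only, and reads without molecular identifiers are not independent molecules.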

Additional observations from a re-analysis of the deposited data

Results flagged for a closer look

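In 10 of 161 checks of a named gene over the 4 WT libraries, 1 library stood far from the other 3, while chance gives about 1 in 20. WT replicate 6 stood apart in Pramef8 (14.6 CPM), Tcf7l2 (3.55 CPM), Plagl1 (1.96 CPM) and Pdk1 (123 CPM). WT replicate 5 stood apart in Prdm14 (9.77 CPM), Nelfa (62.0 CPM), Eda2r (27.4 CPM) and Ccnb2 (71.6 CPM). WT replicate 4 stood apart in Msx1 (7.15 CPM) and Egln3 (9.36 CPM). In each of these genes the P7KO libraries lay outside the range of all 4 WT libraries.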

How the results depend on the processing

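The count of called genes moved most with the libraries used. Only the 6 libraries compared gave 1073 (348 higher, 725 lower), only WT replicates 3 and 4 as controls gave 4038 (2099 higher, 1939 lower), and a log2 change of at least 1 gave 942 (237 higher, 705 lower). Leaving out 1 library at a time gave 518 to 2426 called genes, 165 to 959 higher and 353 to 1467 lower, the lowest without P7KO replicate 1, followed by 728 without P7KO replicate 2, and the highest without WT replicate 6. With 1 P7KO library the lone library is assumed to vary like the other groups. Of 149 named called genes, 76 stayed called under every alternative other than the minimum change and 0 changed sign; 63 lost the call without P7KO replicate 1, 59 without P7KO replicate 2, 35 with only the 6 libraries, 16 against WT replicates 5 and 6, and 0 with DESeq2. Genes that were not called changed sign: Tet1 to -0.33 and Cul2 to -0.016 against WT replicates 5 and 6, Zscan4c to 0.13 against WT replicates 3 and 4 and between -0.32 and 0.37 with 1 library left out, and Pramel7 between -4.25 and 0.033 with 1 library left out. The cause was not tested. The median of chromosome 8 was 0.24 against WT replicates 3 and 4. That of chromosome Y, over only 8 genes, was -2.64 against all 4 WT libraries and -2.40 against the same pair. Over those of the 8 whose mean log2 CPM is 4 or more, it was -0.19. The median of the proximal chromosome 12 stretch ranged from -1.02 to -0.93 over 16 alternatives, and that of the chromosome 4 zinc finger cluster from -1.79 to -1.38. No paired analysis was possible because the P7KO libraries carry the numbers 1 and 2 and the WT libraries of the table the numbers 3 to 6. Depth limits Pramel7 and Duxf3, which had 0 to 4 counts in each of the 6 libraries.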

Other observations

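The median change of chromosome 8 genes lay slightly above 0 along its whole length. Over 621 genes with a mean log2 CPM of 2 or more the median log2 fold change of P7KO against WT was 0.19, with 73 called higher and 21 lower, and all 13 bins of 10 Mb lay above 0, between 0.07 and 0.31. On the other chromosomes but Y the medians were -0.09 to 0.11. The chromosome 8 median was 0.34 in DuxKO minus WT and 0.14 in P7OE minus WT, which share the WT libraries, and -0.13 in P7KO minus DuxKO.

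A cluster of Trim genes on chromosome 7, picked after its values were seen, set 1 WT library apart. Trim12a had 4.73, 1.81, 3.73 and 326 CPM in WT replicates 3 to 6 and 0.566 and 2.89 CPM in P7KO. Trim30b had 4.39, 7.07, 2.35 and 90.2 CPM in WT and 2.01 and 8.77 CPM in P7KO, and Trim34b had 2.95, 2.77, 1.00 and 40.2 CPM in WT and 1.79 and 4.0 CPM in P7KO. WT replicate 6 alone was high, and none of these 3 genes was called. Members of this family are near-identical copies, so their counts are uncertain.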
